A study of Mus musculus with 2 samples.

Results

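The interferon-stimulated genes described here are 40 symbols chosen by name, which type I and type II interferons are known to induce. These symbols, and the gene lists set beside them below, were chosen with earlier results of these data known. The 40 symbols were looked up among the 32285 genes of the deposited single-cell tables, and 39 of them were found once, each with UMIs in kept cells. Mx1 was not analysed here. The member genes comprise 6 immunity-related GTPases, 6 guanylate-binding proteins, 4 transcription factors, 4 Ifit genes, 4 Oas genes, 7 other antiviral effectors, the 2 genes of the Isg15 system and 7 sensors and other induced genes.

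Optic nerves of Nf1-OPG mice were profiled by 5′ single-cell RNA sequencing in 2 libraries, C-ON and FMC_new. Each library was a pool of nerves from 10 mice of 12 weeks of age. Nf1-OPG mice carry 1 mutant and 1 floxed allele of Nf1 (Nf1 flox/mut; GFAP-Cre, on a C57BL/6 background), so that Cre driven by the GFAP promoter removes Nf1 in the glial lineage and low-grade optic gliomas form. The label of C-ON adds the word "control" and that of FMC_new adds "FMC new", and neither is explained in the sources used here. Both libraries carry the same genotype label, so they were taken as 2 libraries of 1 condition, no test between groups was possible and no p-value is given. Pooling leaves no value for a single mouse, and the spread between mice is unknown. Nerves were dissociated and cleared of debris and myelin before capture, and the part of these steps in the levels was not tested.

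C-ON held 8834 kept cells with a median of 6810.5 UMIs (unique molecular identifiers, each marking 1 captured RNA molecule), and FMC_new held 16818 kept cells with a median of 4676 UMIs. The libraries shared 188 barcodes among kept cells. Pituitary endocrine cells made up 1670 cells of FMC_new and 19 of C-ON, and the pituitary hormone transcript Gh was at 2084 CPM in oligodendrocytes of FMC_new and at 0 in those of C-ON. CPM is the number of UMIs of a gene or list scaled to 1000000 UMIs of a class of cells. A 5′ library counts a molecule once whatever its length, so CPM values of different genes were set side by side without a correction for length. Intervals are exact 95% Poisson intervals for levels and exact 95% Clopper-Pearson intervals for shares of cells, and both cover counting error only.

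Interferons are secreted proteins that put cells into an antiviral and antigen-presenting state. Type I interferons act through the receptor Ifnar1/Ifnar2 and a factor that holds Stat2 and Irf9, which binds the interferon-stimulated response element. Interferon gamma, the type II interferon made chiefly by T cells and NK cells, acts through Ifngr1/Ifngr2 on genes with a gamma-activated site. In white matter, oligodendrocytes that carry such a response have been described in inflammation, where they can express antigen-presentation genes.

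Promoters of the members are shown first, since both elements are known from genes of this kind. RefSeq promoters (GRCm38.p6, 250 bases before to 50 bases after a start site) were matched by symbol for 29 of 40 members, as 36 promoters. A gene was counted as holding a core when any of its promoters held it. None was matched for Iigp1, Gm4951, Gbp4, Gbp6, Oas2, Mx1, Zbp1, Usp18, Parp14, Rtp4 and Ifi27l2a. A response element core, written GAAANNGAAA and searched on both strands, was present in promoters of 19 of 29 members (65.5%) and of 3.99% of all 27025 genes with a promoter. A gamma-activated site core, TTCNNNGAA, which reads the same on both strands, was present in 11 of 29 members (37.9%) and in 9.55% of all genes. Both cores occurred together in 8 members (27.6%), against 0.614% of all genes. The letters of both cores overlapped in 24 of 32851 promoters (0.0731%), those of Ifitm3 and Bst2 among them. All 4 immunity-related GTPases and all 4 guanylate-binding proteins with a promoter held the response element core. Of the 4 transcription factors, Stat2 held a response element core and Irf1 a gamma-activated site core. The Irf1 core was in the promoter at chr11:53769764-53770063 and not in that at chr11:53770223-53770522.

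The 110 bases before the start site follow for 9 members that carry the results below, 5′ to 3′ on the gene's strand, with the cores in capitals. They show GTPase promoters with both cores side by side, genes with 1 kind of core, and Xaf1, which has neither. For Irf1 the promoter with a core is shown and the one without is left out.
Igtp (chr11:58199446-58199555, + strand): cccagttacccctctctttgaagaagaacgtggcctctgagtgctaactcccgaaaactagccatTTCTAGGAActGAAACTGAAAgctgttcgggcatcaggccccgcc
Irgm2 (chr11:58214867-58214976, + strand): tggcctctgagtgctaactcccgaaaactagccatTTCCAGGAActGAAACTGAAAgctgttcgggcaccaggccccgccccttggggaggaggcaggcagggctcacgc
Tgtp2 (chr11:49064213-49064322, - strand): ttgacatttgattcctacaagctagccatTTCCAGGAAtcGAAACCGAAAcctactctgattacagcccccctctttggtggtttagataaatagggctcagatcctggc
Irgm1 (chr11:48871421-48871530, - strand): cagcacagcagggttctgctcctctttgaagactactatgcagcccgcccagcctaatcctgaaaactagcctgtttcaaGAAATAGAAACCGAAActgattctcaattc
Gbp2 (chr3:142620553-142620662, + strand): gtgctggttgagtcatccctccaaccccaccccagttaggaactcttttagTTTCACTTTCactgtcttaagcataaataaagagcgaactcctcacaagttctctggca
Irf1 (chr11:53769904-53770013, + strand): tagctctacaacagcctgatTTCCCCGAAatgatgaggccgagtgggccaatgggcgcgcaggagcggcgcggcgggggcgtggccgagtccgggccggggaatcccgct
Isg15 (chr4:156200819-156200928, - strand): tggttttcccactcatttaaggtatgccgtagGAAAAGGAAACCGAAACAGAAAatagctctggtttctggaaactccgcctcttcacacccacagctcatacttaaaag
Ifit1 (chr19:34640779-34640888, + strand): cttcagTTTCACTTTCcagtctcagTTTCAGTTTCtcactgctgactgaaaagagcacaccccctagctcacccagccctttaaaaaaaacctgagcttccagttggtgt
Xaf1 (chr11:72301519-72301628, + strand): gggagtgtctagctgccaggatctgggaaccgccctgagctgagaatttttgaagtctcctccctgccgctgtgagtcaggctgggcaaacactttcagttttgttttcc

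In Igtp, Irgm2 and Tgtp2 the gamma-activated site core was followed after 2 bases by the response element core. This spacing, looked for after it had been seen, was present in 5 of 32851 promoters (0.0152%), the others being those of Tgtp1 and Gm12185. Igtp and Irgm2 lie close together on chromosome 11, and 78 of 80 aligned bases (97.5%) of their windows were the same. Igtp and Tgtp2 shared 48 of 74 aligned bases (64.9%), and 17 of the 21 bases of the joined cores. The windows were aligned on the joined cores, whose fixed letters are the same in every hit. These letters are part of the matches counted, so the matches within the cores are no measure of likeness. A match of letters is a description of the sequence and no evidence of binding in these cells.

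The summed level of the members ranged widely between cell classes, and macrophages, microglia, dendritic cells and T cells were at the upper end. Oligodendrocytes, the myelin-forming cells, were at 1736 CPM in C-ON (interval 1724 to 1748, 5369 cells) and at 3083 CPM in FMC_new (3057 to 3110, 2080 cells). Glioma cells, a class named from oligodendrocyte precursor genes including Neu4 and Gpr17, were at 2163 CPM (2083 to 2246, 216 cells) and 3382 CPM (3341 to 3423, 1407 cells). Microglia were at 4349 CPM (4235 to 4464, 221 cells) and 4496 CPM (4451 to 4541, 1711 cells). T cells were at 4965 CPM (4892 to 5038, 902 cells) and 3899 CPM (3861 to 3937, 2857 cells). The classes met their markers, with 10 or 11 of 11 listed oligodendrocyte markers, 12 of 12 glioma markers, 6 to 8 of 8 microglia markers and 7 to 9 of 10 T cell markers counted in each cluster of the class. In both libraries the order of these classes placed oligodendrocytes below glioma cells, and glioma cells below microglia and T cells. Microglia and T cells changed places between the libraries. The place of T cells rested on Ifi27l2a, since without this gene, in a sum chosen after the data had been seen, they were at 2853 and 2338 CPM. Oligodendrocytes were then at 1481 and 2816 CPM, glioma cells at 1924 and 3227 CPM and microglia at 3814 and 3968 CPM, so that T cells of FMC_new were below oligodendrocytes and glioma cells.

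**Figure D1:**
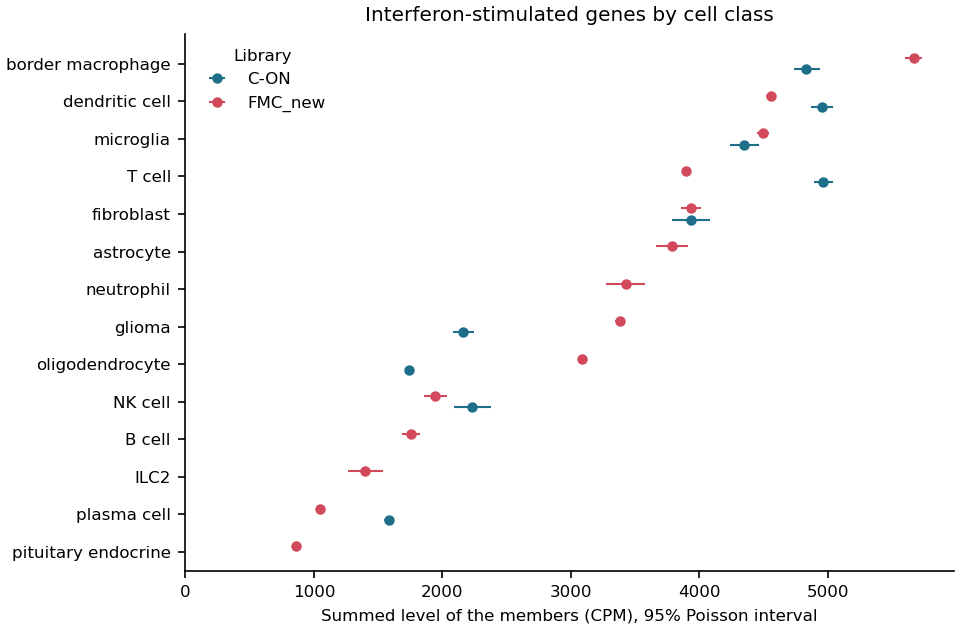
Summed level of the 39 interferon-stimulated genes found (horizontal axis, CPM) by cell class, with points for each library of at least 50 cells of the class and bars for 95% Poisson intervals. Border macrophages of FMC_new reached 5667 CPM and pituitary endocrine cells of the same library 858 CPM, and oligodendrocytes and glioma cells stood further apart between libraries than microglia did.

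Of the other classes, border macrophages, which reside in the meninges and around vessels, were at 4833 and 5667 CPM, dendritic cells at 4954 and 4557 CPM, and fibroblasts at 3932 and 3935 CPM in C-ON and FMC_new. Much of these sums came from Ifitm3, Ifi27l2a and Bst2. Over both libraries they gave 27.8%, 16.0% and 11.4% in border macrophages, and 35.8%, 10.4% and 7.87% in dendritic cells. In fibroblasts they gave 39.7%, 11.3% and 6.69%. The place of these classes without the 3 genes was not computed. NK cells were at 2229 and 1943 CPM and antibody-secreting plasma cells at 1580 and 1045 CPM. In FMC_new alone, where these classes had at least 50 cells, astrocytes were at 3784, neutrophils at 3426, B cells at 1756 and ILC2 at 1398 CPM. Among lymphoid cells, T cells were thus the highest class in both libraries. The 20 neurons of FMC_new were at 133 CPM and the 35 of C-ON at 272 CPM, the lowest levels of any named class in FMC_new and the second lowest in C-ON after 20 astrocytes at 239 CPM. Plasmacytoid dendritic cells, known as the strongest makers of type I interferon, were the highest class at 8130 CPM in 45 cells of FMC_new and 8510 CPM in 3 cells of C-ON.

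The genes that made up the sum differed between classes. In oligodendrocytes the 5 members with the most UMIs were Ifi27l2a (12.3% of the sum), Iigp1, Xaf1, Igtp and Irgm1, together 46.3% of member UMIs. Of these, Iigp1, Igtp and Irgm1 are GTPases that act at the membranes around intracellular parasites. In glioma cells they were Ifitm3, Irgm1, Irf1, Tgtp2 and Igtp (36.8% together). In microglia they were Ifi27l2a, Irf1, Ifitm3, Bst2 and Iigp1 (46.7% together). In T cells Ifi27l2a alone, which encodes a small membrane protein, gave 40.8% of the sum, followed by Irf1, Bst2, Isg15 and Isg20. Over 9 classes with at least 50 cells in both libraries, 20 of 39 members had the same highest class in both. That class was microglia for 6 members, T cells for 5, glioma cells for 3, and border macrophages and dendritic cells for 2 each. Fibroblasts and oligodendrocytes had 1 each, Ifit1 and Xaf1. The same count over all genes was not made, so these numbers have no background.

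**Figure D2:**
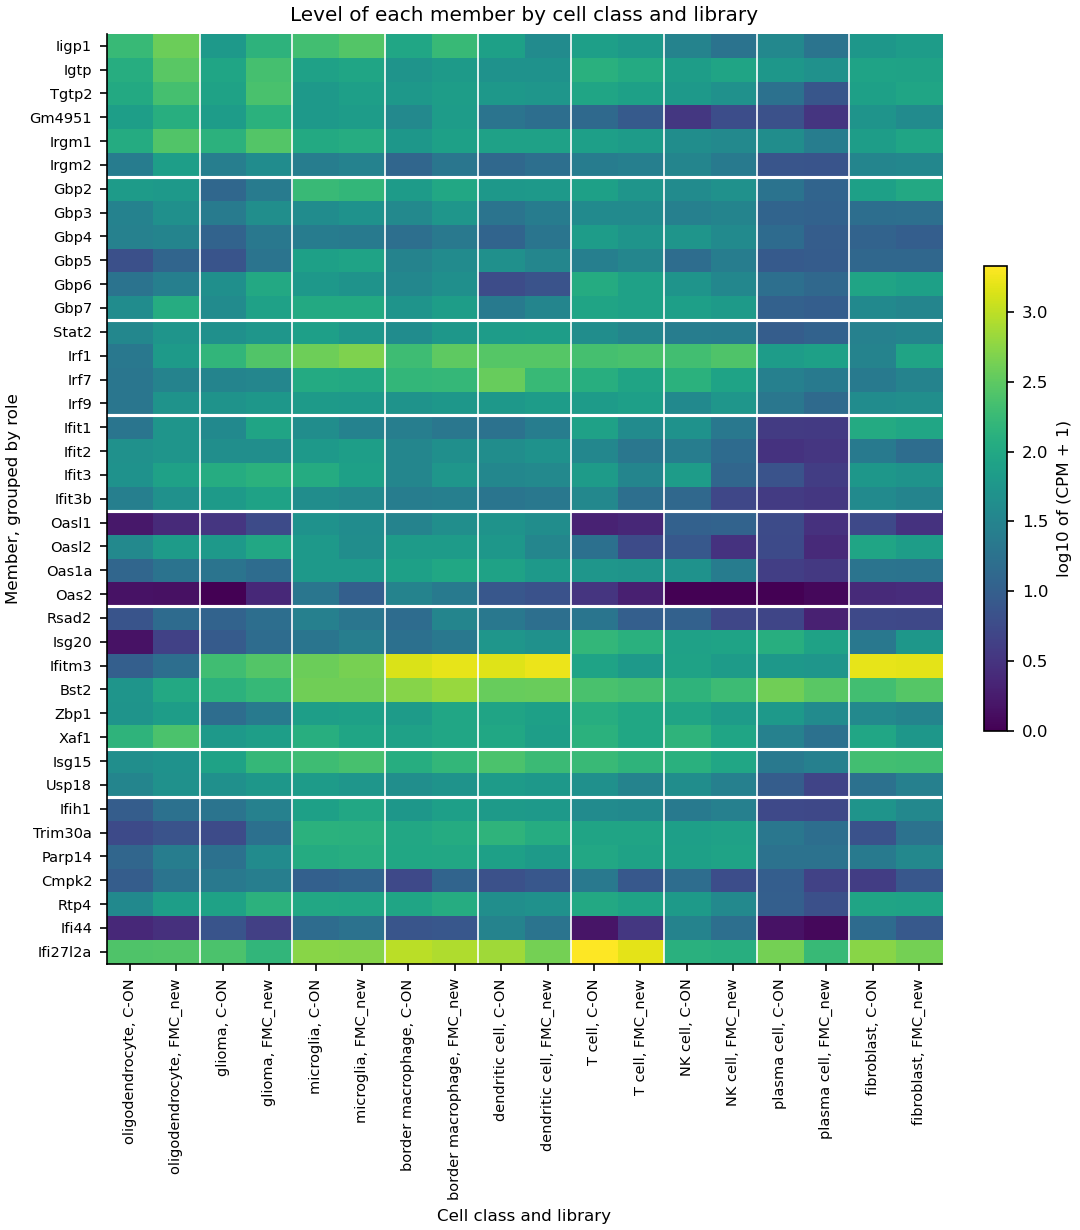
Level of each member (rows, grouped by role, colour as log10 of CPM + 1) in the 9 classes with at least 50 cells in each library (columns). The GTPases at the top were bright in oligodendrocytes and glioma cells of FMC_new, Ifitm3 was bright in border macrophages, dendritic cells and fibroblasts, and Ifi27l2a was brightest in T cells.

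The immunity-related GTPases were at 603 and 1343 CPM in sum in oligodendrocytes of C-ON and FMC_new, 463 and 1044 CPM in glioma cells, 537 and 643 CPM in microglia, and 404 and 345 CPM in T cells. Iigp1 was the highest GTPase of oligodendrocytes, at 174 CPM in C-ON and 373 CPM in FMC_new, and Irgm2 the lowest, at 23.6 and 71.7 CPM. Iigp1 was at 61.8 and 142 CPM in glioma cells, 208 and 269 CPM in microglia and 73.7 and 61.1 CPM in T cells. Igtp was at 118 and 295 CPM in oligodendrocytes and at 89.5 and 219 CPM in glioma cells. Irgm1, a regulator of the other GTPases, was at 110 and 264 CPM in oligodendrocytes and at 137 and 275 CPM in glioma cells, where it was highest of the 9 classes. Tgtp2 was at 105 and 221 CPM in oligodendrocytes and at 82.4 and 234 CPM in glioma cells. Gm4951, a close copy of Iigp1, was at 72.4 and 119 CPM in oligodendrocytes and at 12.8 and 7.7 CPM in T cells.

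Guanylate-binding proteins, GTPases that coat and break open pathogen vacuoles, were less alike among themselves. In oligodendrocytes Gbp2 was the highest over both libraries, at 66.3 and 62.8 CPM, and Gbp5 the lowest at 5.5 and 11.1 CPM. Gbp2 was at 11.9 and 23.1 CPM in glioma cells and at 177 and 156 CPM in microglia. Gbp6 went the other way between the glial classes, at 17.4 and 26.3 CPM in oligodendrocytes and 44.4 and 100.2 CPM in glioma cells. Of the remaining members of the family in oligodendrocytes, Gbp3, Gbp4 and Gbp7 lay between 27.6 and 114 CPM.

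Ifit and Oas genes, known effectors of the type I response, and the Isg15 system summed to 263 and 409.6 CPM in oligodendrocytes. This was below the immunity-related GTPases and above the guanylate-binding proteins, which summed to 186 and 289.6 CPM. Ifit3, which with its relatives binds foreign RNA, was at 48.2 and 78.0 CPM and Ifit1 at 18.7 and 52.7 CPM. In glioma cells Ifit3 was at 115 and 131 CPM, the highest of the 9 classes. Oasl2 was at 35.3 and 65.3 CPM in oligodendrocytes, whereas Oas2, an enzyme that activates RNase L, was at 0.433 and 0.411 CPM there and at 29.4 and 22.2 CPM in border macrophages. Isg15, a ubiquitin-like protein that is joined to other proteins, was at 43.6 and 47.8 CPM in oligodendrocytes, and Usp18, which removes it, was at 31.1 and 46.9 CPM. The ratio of the 12 GTPases of both families to the 10 Ifit, Oas and Isg15 system genes was 3.003 in C-ON and 3.99 in FMC_new in oligodendrocytes. It was 1.28 and 1.95 in glioma cells, 1.45 and 1.71 in microglia, 1.58 and 2.01 in T cells, and 0.738 and 0.835 in dendritic cells. Among the 9 classes with at least 50 cells in both libraries, plasma cells, at 4.28 and 3.45, were the other class with a ratio of 3 or more in both. In FMC_new alone, B cells were at 4.44, above oligodendrocytes, and ILC2 at 3.76.

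The transcription factors among the members were low in oligodendrocytes. Irf1, which drives many gamma-induced genes, was at 20.6 and 64.2 CPM there, at 153 and 265 CPM in glioma cells and at 388 and 476 CPM in microglia. Stat2 was at 33.7 and 52.8 CPM in oligodendrocytes and Irf7 at 19.3 and 29.4 CPM. Irf7, which amplifies type I interferon production, was highest in dendritic cells, at 354 and 174 CPM.

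Among the other effectors, sensors and induced genes of oligodendrocytes, Xaf1 and Ifi27l2a were high and Isg20 and Ifi44 were near 0. Xaf1, which promotes apoptosis, was at 144 and 238 CPM in oligodendrocytes, and at 61.0 and 71.3 CPM in glioma cells. Ifi27l2a was at 255 and 267 CPM in oligodendrocytes and at 2112 and 1560 CPM in T cells. Isg20, an RNA exonuclease, was at 0.455 and 3.41 CPM in oligodendrocytes and at 160 and 127 CPM in T cells. Ifitm3, which blocks viral entry, was at 9.27 and 15.1 CPM in oligodendrocytes, 199 and 272 CPM in glioma cells and 1368 and 1568 CPM in border macrophages. Bst2, which tethers budding viruses, was at 53.6 and 99.7 CPM in oligodendrocytes and at 530 and 651 CPM in border macrophages. Ifi44 was at 1.41 and 1.88 CPM in oligodendrocytes.

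To read single genes against the whole table, classes were compared by fold change, and a gene was counted when its level differed by 2-fold or more in the same direction in each library. Of the 38 members with at least 30 UMIs in oligodendrocytes and glioma cells together in each library, which leaves out Oas2, 4 were higher in oligodendrocytes, where 8.49% of all 12831 genes were, and 5 were lower, where 23.2% of all genes were. The higher members were Iigp1 (2.82-fold in C-ON and 2.62-fold in FMC_new), Gbp2 (5.58 and 2.72), Zbp1 (3.66 and 3.17), a sensor of nucleic acids, and Xaf1 (2.37 and 3.34). The lower members, as ratios of oligodendrocytes to glioma cells, were Ifitm3 (0.0466 and 0.0555), Isg20 (0.0574 and 0.247), Irf1 (0.135 and 0.242), Oasl1 (0.264 and 0.305) and Gbp6 (0.393 and 0.262). The share of members on the higher side was close to the background and that on the lower side was below it. The median log2 ratio of the members was -0.62 in C-ON and -0.23 in FMC_new, and that of all genes was -0.34 and -0.30.

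Microglia exceeded oligodendrocytes by 2-fold or more in both libraries for 15 of 39 members, where 18.7% of 12514 genes did so. No member was lower by that measure, where 25.2% of genes were. The ratios were widest for Oasl1 (78 and 27.4), Oas2 (44.9 and 22.5), Ifitm3 (40.9 and 29.4), Isg20 (41 and 7.5) and Trim30a (28.4 and 21.2), a tripartite-motif ubiquitin ligase. Irf1 (18.8 and 7.41), Gbp5 (14 and 7.66), Ifi44 (9.95 and 8.98), Parp14 (9.64 and 4.88) and Ifih1 (9.05 and 5.95), a sensor of double-stranded RNA, came next. Bst2, Irf7, Oas1a, Isg15 and Gbp2 were higher by between 2.49 and 7.56-fold. None of the 6 immunity-related GTPases was among the 15. The median log2 ratio of the members was 1.35 in C-ON and 0.34 in FMC_new, and that of all genes was -0.28 and -0.44.

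T cells exceeded oligodendrocytes for 13 of 38 members, where 20.1% of 12818 genes did so, and were lower for 3, where 26.4% of genes were. Isg20 (351 and 37.3), Trim30a (18.7 and 14.4), Irf1 (10.6 and 3.6) and Ifi27l2a (8.28 and 5.84) were widest on the higher side. Ifitm3 (9 and 3.94), Parp14 (8.5 and 3.38), Gbp6 (6.25 and 3.03), Irf7 (6.24 and 2.98), Oas1a (4.83 and 3.02), Gbp5 (4.7 and 2.97), Ifih1 (4.62 and 2.26), Bst2 (4.35 and 2.15) and Isg15 (4.06 and 3.01) completed that side. The lower members were Gm4951 (0.177 and 0.0647), Iigp1 (0.422 and 0.164) and Oasl2 (0.457 and 0.0728). The median log2 ratio of the members was 1.21 in C-ON and -0.19 in FMC_new, against -0.18 and -0.13 for all genes.

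Within oligodendrocytes the members were concentrated in a minority of cells. Each cell was thinned at random to 1000 UMIs so that cells were compared at equal depth, and its member UMIs were counted. No member UMI was left in 66.2% of oligodendrocytes of C-ON (interval 64.9 to 67.4) and in 39.0% of those of FMC_new (36.9 to 41.1). At the other end, 517 of 5355 oligodendrocytes of C-ON (9.65%, 8.88 to 10.5) and 414 of 2054 of FMC_new (20.2%, 18.4 to 21.96) held 5 or more, up to 42 and 40 of 1000. Oligodendrocytes with 3 to 4 member UMIs numbered 139 in C-ON and 204 in FMC_new. More cells held 5 or more than 3 to 4 in glioma cells, microglia and T cells too, in both libraries, and the class of 5 or more has no upper limit.

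**Figure D3:**
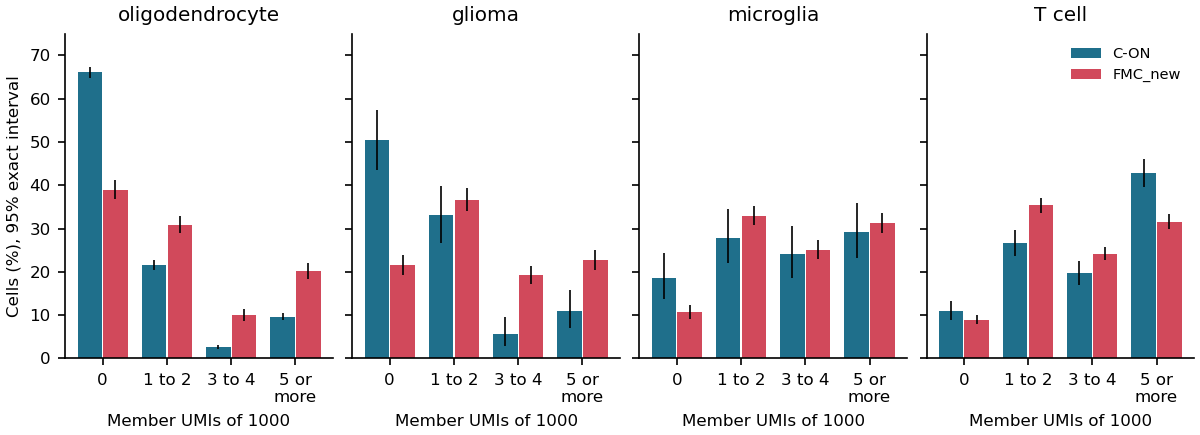
Share of cells (vertical axis, %) by the number of member UMIs left at 1000 UMIs per cell, in 4 classes and both libraries, with exact 95% intervals as bars. Oligodendrocytes had the largest share of cells at 0 of the 4 classes, while T cells of C-ON had their largest share, 42.8%, at 5 or more. All members found were counted, Ifi27l2a among them.

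Glioma cells held no member UMI in 50.5% and 21.5% of cells, and 5 or more in 10.8% (23 of 212 cells) and 22.7% (302 of 1333 cells). Microglia held 5 or more in 29.3% and 31.3% of cells, T cells in 42.8% and 31.5%, and NK cells in 11.9% and 7.78%. Ifi27l2a alone gave 40.8% of the T cell sum, and the shares were not computed without it. The share at 5 or more was 6.02% and 3.34% in plasma cells, and 6.48% in pituitary endocrine cells of FMC_new. Cells with no member UMI were thus most frequent in oligodendrocytes among the classes plotted, in both libraries.

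Members were found together in the same oligodendrocytes. Those of C-ON with an Iigp1 UMI at 1000 held 11.7 UMIs of the other members on average, and those without held 0.707, a ratio of 16.6, which was 5.73 in FMC_new. The ratios were 14.3 and 4.45 for Irgm1, 14.1 and 5.32 for Gbp2, and 13.2 and 5.51 for Ifit3, so cells with a UMI of 1 of these genes held more UMIs of the others. In C-ON they were lowest for Irf9 (4.13), Stat2 (4.43), Xaf1 (4.78), Ifit2 (4.82) and Ifi27l2a (4.99). These were at 2.02, 2.21, 2.38, 2.66 and 2.23 in FMC_new, where Ifitm3 was lower still at 1.95. These ratios share cells, libraries and depth, and are a description.

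Oligodendrocytes fell into 6 clusters, made without the members among the variable genes but with other interferon-induced genes left in, so levels by cluster are a description. Cluster 2, whose leading genes outside the members included Klk8, Serpina3n, C4b and Klk6, was at 8414 CPM in C-ON and 6044 CPM in FMC_new. It held 14.1% and 33.9% of oligodendrocytes, 71.5% and 63.1% of their member UMIs, and 82.0% and 72.7% of the cells with 5 or more member UMIs at 1000. Cluster 8, led by Plcl1, was at 1183 and 3160 CPM. Cluster 4, led by genes including Hopx and Nkx2-9, was at 590 and 1409 CPM. Clusters 6, 1 and 14 were at 353, 325 and 294 CPM in C-ON and at 770, 584 and 650 CPM in FMC_new. Clusters 1 and 14 are led by Ptgds and Opalin, genes of mature oligodendrocytes. In both libraries cluster 2 was above cluster 8, and cluster 8 above the other clusters.

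**Figure D4:**
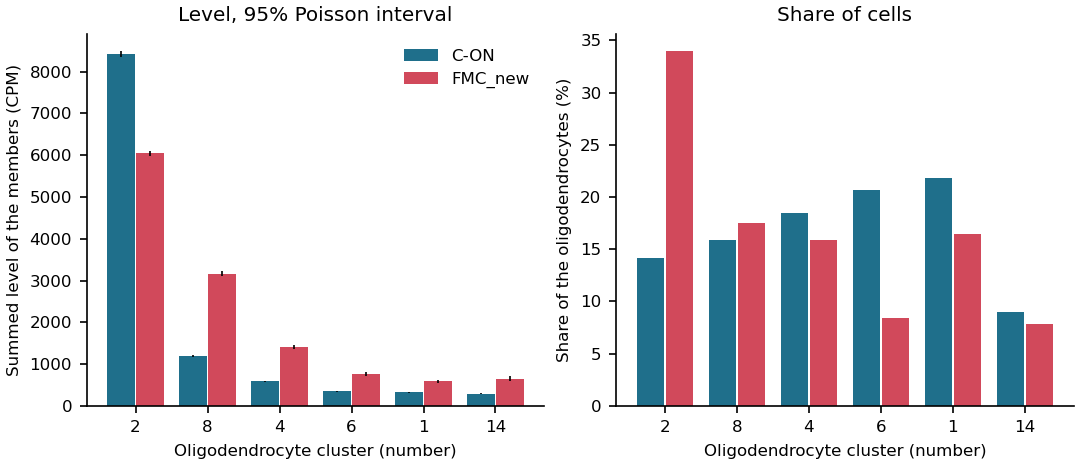
Left, summed level of the members (CPM, bars, with 95% Poisson intervals) in the 6 oligodendrocyte clusters of each library; right, the share of the library's oligodendrocytes (%) in each cluster. Cluster 2 had the highest level in both libraries and made up 14.1% of oligodendrocytes of C-ON and 33.9% of those of FMC_new.

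Most members differed widely between cluster 2 and cluster 1. Iigp1 was at 1030 and 819 CPM in cluster 2 and at 2.62 and 5.38 CPM in cluster 1, and Igtp at 688 and 610 CPM against 2.98 and 24.7 CPM. Gbp2 was at 384 and 151 CPM against 0.953 and 1.79 CPM, and Isg15 at 274 and 127 CPM against 1.19 and 2.24 CPM. A few members were also present in the low cluster. Xaf1 was at 423 and 375 CPM in cluster 2 and still at 128 and 153 CPM in cluster 1, Ifi27l2a at 757 and 456 CPM against 84.5 and 101 CPM, and Ifit2 at 124 and 66.1 CPM against 28.9 and 21.5 CPM. Ifi27l2a was at 338 and 345 CPM in cluster 4, where Iigp1 was at 4.3 and 104 CPM.

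The ratio of the GTPases to the Ifit, Oas and Isg15 system genes also differed by cluster. It was 3.39 in C-ON and 4.47 in FMC_new in cluster 2, and 3.72 and 4.19 in cluster 8. In C-ON it was 0.385 in cluster 1, 0.39 in cluster 4, 0.477 in cluster 6 and 0.743 in cluster 14. In FMC_new the same clusters were at 0.717, 2.42, 1.99 and 1.72. In cluster 4, GTPases were at 31.2 CPM in C-ON and at 485 CPM in FMC_new, while the Ifit, Oas and Isg15 system genes were at 80.1 and 200.2 CPM.

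Oligodendrocytes were also separated by single genes outside the members. Cells with UMIs of both Serpina3n and C4b, an acute-phase protease inhibitor and a complement component known from stressed oligodendrocytes, were at 5359 CPM in C-ON (1265 cells) and 4297 CPM in FMC_new (1196 cells). Cells with neither were at 363 CPM (1979 cells) and 447 CPM (380 cells). Cells with Klk6 were at 2038 and 3425 CPM and those without it at 403 and 1073 CPM. Cells with Hopx or Nkx2-9 were at 2007 and 3212 CPM and those without both at 1371 and 2940 CPM, a narrower difference. Cluster 4, with both genes among its leading genes, went the other way, at 590 and 1409 CPM. A cell with a UMI of a gate gene tends to be deeper, and this was not corrected for.

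Glioma cells showed less spread between subsets. Those with a Gpr17 UMI, 1 of the genes that mark committed precursors, were at 2146 CPM in C-ON (2034 to 2263) and 3088 CPM in FMC_new (3032 to 3146). Those without were at 2180 CPM (2066 to 2299) and 3642 CPM (3584 to 3700), so the intervals overlapped in C-ON but not in FMC_new. These intervals leave out the spread between cells and between mice, and a difference between the subsets was not tested. Cluster 10, led by Cspg5 and Pdgfra, was at 1896 and 3621 CPM, and cluster 18, led by Gpr17 and Tnr, was at 3000.3 CPM in 48 cells and at 2762 CPM in 532 cells. The order of both clusters turned between the libraries.

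Microglia of cluster 5, led by genes such as Tmem119 and P2ry12, were at 4448 and 4634 CPM. The smaller cluster 16, with a median of 1698.5 UMIs, was at 3000.5 CPM in 42 cells of C-ON and 3697 CPM in 586 cells of FMC_new. Among T cells, CD4 T cells without Foxp3 were at 7110 CPM (6889 to 7336) and 5056 CPM (4950 to 5163), and Foxp3 T cells, the regulatory T cells, were at 7707 CPM (7399 to 8024) and 5044 CPM (4920 to 5170). CD8 T cells were at 3835 CPM (3751 to 3920) and 3213 CPM (3166 to 3260), below both in each library. Those CD8 T cells with Pdcd1, which encodes the checkpoint receptor PD-1, were at 4112 CPM and those without at 3403 CPM in C-ON. In FMC_new the values were 3104 and 3424 CPM, in the reverse order. Cluster 9, with Ctla4 and Foxp3 among its leading genes, was at 7873 and 5278 CPM, and cluster 12, with Pdcd1 and Xcl1 among them, at 4040 and 2789 CPM. Ifi27l2a, 40.8% of the sum of all T cells, is part of these levels. The order of the T cell subsets without it was not computed.

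Of the 9 classes compared, the libraries differed most in oligodendrocytes and glioma cells. The summed level in oligodendrocytes was 1.78 times as high in FMC_new as in C-ON (1.76 to 1.80), and 37 of 38 members were higher in FMC_new, as were 52.3% of all genes tested. Past 2-fold, 15 members were higher, where 6.31% of 13765 genes were, and none was lower, where 2.0% of genes were. They included Isg20 (7.49-fold), Irf1 (3.12), Irgm2 (3.04), Ifit1 (2.81), Gbp7 (2.79), Irf9 (2.59), Igtp (2.5), Irgm1 (2.41), Oasl1 (2.34), Rsad2 (2.17), a radical enzyme that inhibits viral replication, and Iigp1 (2.14). Tgtp2 and Parp14 (both 2.11), Cmpk2 (2.1) and Gbp5 (2.02) were nearest to the limit. Isg20 and Oasl1 were low in oligodendrocytes. With cells thinned to equal depth, Isg20 was left in 2 oligodendrocytes of C-ON and 12 of FMC_new. For Oasl1 these were 0 and 5. Over both libraries Isg20 was at 1.25 CPM in oligodendrocytes and at 75.7 CPM in pituitary endocrine cells. The pituitary transcript Gh was at 0 in oligodendrocytes of C-ON and at 2084 CPM in those of FMC_new. What part RNA carried over from other cells has in the Isg20 ratio was not tested. The median log2 ratio of the members was 0.86 and that of all genes 0.01. This compares a single library with another, and library, pool of mice and the unexplained labels cannot be told apart.

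Part of that difference went with the mix of clusters. Within cluster 2 the level of FMC_new was 0.718 times that of C-ON, whereas within clusters 8, 4, 14, 6 and 1 it was 2.67, 2.39, 2.21, 2.18 and 1.79 times as high. With the clusters of FMC_new weighted as in C-ON, an alternative chosen after the data had been seen, the ratio was 1.197. Other interferon-induced genes were left in when the clusters were made. The mix of clusters is therefore not separate from the level of such genes, and the weighted ratio is a description. In glioma cells the ratio was 1.56, with 35 of 38 members higher in FMC_new, as were 46.6% of all genes tested. It was 1.17 in border macrophages, with 35 of 39 members higher against 38.4% of all genes, and 1.03 in microglia, with 19 of 39 members higher against 38.7% of all genes. In T cells it was 0.785, with 5 of 36 members higher against 54.9% of all genes. In NK cells it was 0.871, with 11 of 29 members and 58.1% of all genes higher, and in plasma cells 0.661, with 6 of 36 members and 35.2% of all genes higher. The summed level was thus lower in FMC_new in these 3 lymphoid classes and higher in oligodendrocytes and glioma cells.

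Ligands were sought to see which cells carried interferon transcripts. Ifng, the gene of interferon gamma, had 3441 UMIs, of which T cells held 66.3%, in 25.3% of their cells. Unnamed clusters 22 and 26, which carry T cell markers, held a further 13.5% and NK cells 3.46%. Its level was 192 and 151 CPM in T cells, 80.5 and 89.1 CPM in NK cells and 0.13 and 0.646 CPM in oligodendrocytes, whose 17 UMIs were 0.494% of the total. All 19 other interferon genes listed had 209 UMIs together, from 9 genes in 18 cells. One border macrophage of C-ON carried 181 of them (86.6%), as 97 UMIs of Ifnb1, 45 of Ifna2, 37 of Ifna4, 1 of Ifna1 and 1 of Ifna9. Ifnk had 8 UMIs, Ifnz 2, and Ifna14 and Ifnab 1 each. Ifna5, Ifna6, Ifna11, Ifna12, Ifna13, Ifna15, Ifna16, Ifne, Ifnl2 and Ifnl3 had none in 25652 kept cells.

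Receptors of both types were detected in oligodendrocytes at low levels. Ifngr1, the ligand-binding chain for interferon gamma, was at 15.4 and 23.1 CPM in oligodendrocytes, 48.3 and 84.8 CPM in glioma cells, 489 and 465 CPM in microglia and 597 and 669 CPM in T cells. Ifngr2, its signalling partner, was at 5.59 and 7.93 CPM in oligodendrocytes, 152 and 160 CPM in microglia and 6.39 and 9.5 CPM in T cells. Ifnar2 was at 60.0 and 73.3 CPM in oligodendrocytes and at 204 and 233 CPM in microglia, and Ifnar1 at 21.5 and 25.6 CPM in oligodendrocytes. Il10rb, a chain shared with the type III receptor, was at 1.02 and 2.23 CPM in oligodendrocytes, and the other chain, Ifnlr1, had 132 UMIs in all kept cells.

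Genes outside the sum were then compared between oligodendrocytes with 5 or more member UMIs and those with 0. Of all 12963 genes outside the members, 3.02% were higher by 2-fold or more in both libraries and 1.47% were lower. All 15 listed genes of MHC class I presentation were higher, with a median ratio of 97.1 in C-ON and 9.79 in FMC_new. Tap1, which moves peptides to be loaded, differed most in C-ON (493 and 24.4), H2-T23 by 360 and 29.3, and Tapbp least in C-ON (15.9 and 8.41). B2m, the light chain of class I molecules, was at 3151 CPM against 96.3 CPM in C-ON and 3356 against 538 CPM in FMC_new. H2-K1 was at 2406 against 46.0 CPM and 2157 against 360 CPM, and H2-D1 at 5309 against 164 CPM and 4691 against 945 CPM. Across whole classes B2m was at 483 and 1529 CPM in oligodendrocytes, 728 and 1766 CPM in glioma cells and 2855 and 4292 CPM in microglia.

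MHC class II presentation differed from class I. Of its 6 listed genes, H2-DMa (7.43 and 2.45), which helps load peptides, was the one past 2-fold in both libraries. H2-DMb1 had the widest ratio in C-ON, 25.2, against 1.75 in FMC_new, and Cd74 the narrowest, 4.56, against 0.859. In the list of signalling genes, 8 of 13 with at least 30 UMIs were higher, Batf2 having the widest ratio in C-ON (115 and 18.3). Tyk2, which was not higher, had the narrowest (0.893 and 1.02). Of 41 further interferon-induced genes, 28 had at least 30 UMIs and 22 were higher, with Ifi47, another immunity-related GTPase, widest (604 and 131). Cd274, which encodes the checkpoint ligand PD-L1, was at 207 against 0.766 CPM and at 193 against 5.07 CPM. Ifi203 was narrowest in C-ON (0.741 and 1.1). Of the sensors, 3 of 5 were higher, Ddx58 by 29.8 and 11-fold, Dhx58 and Tlr3, whereas Aim2 was at 0.512 and 1.3.

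**Figure D5:**
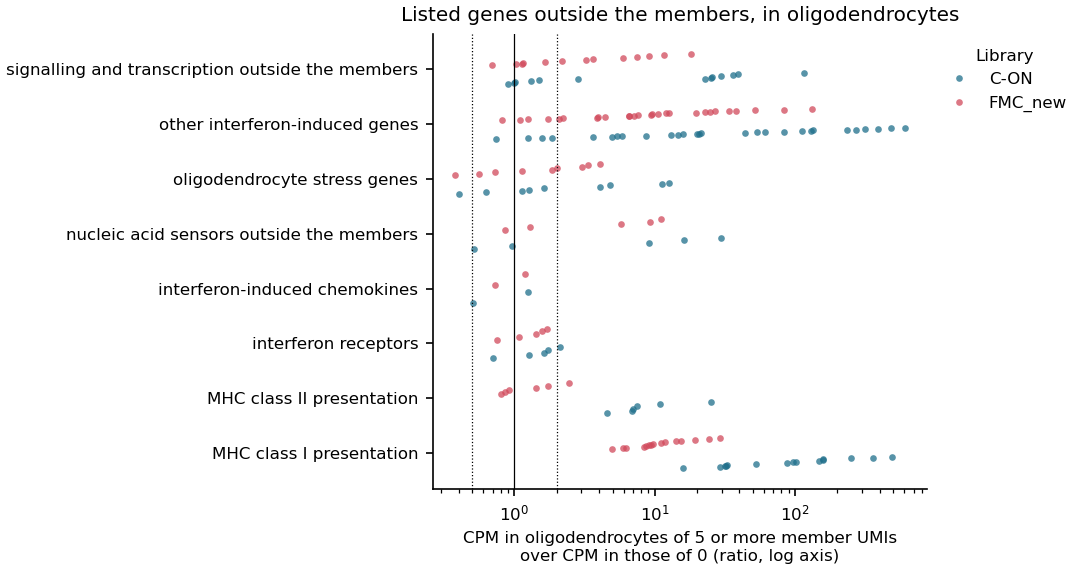
Ratio of the level in oligodendrocytes with 5 or more member UMIs at 1000 to that in those with 0 (horizontal log axis), for listed genes with at least 30 UMIs, each point a gene in a library; dotted lines mark 2-fold. All 15 MHC class I genes lay past 2-fold in both libraries, while no interferon receptor did.

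None of the 5 receptors with enough UMIs passed 2-fold in both libraries. Ifnar2 was at 2.13 and 1.72 and Ifnar1 at 0.702 and 1.09, at the ends of the list. Of 4 listed chemokines, 2 had at least 30 UMIs, and neither passed 2-fold in both libraries. Cxcl9 was at 1.26 and 0.725 and Ccl5 at 0.508 and 1.2. The other listed chemokines could not be compared. Of 9 oligodendrocyte stress genes, 4 were higher. They were Serpina3n (12.6 and 4.08), C4b (11.4 and 3.37), Klk6 (4.78 and 3.03) and the alarmin Il33 (4.09 and 2.004). Nkx2-9 was lower (0.404 and 0.379).

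Markers of other cells were read in the same cells. The 10 T cell markers summed to 8.16 CPM in oligodendrocytes with 0 and 14.7 CPM in those with 5 or more member UMIs in C-ON, and to 27.7 and 27.5 CPM in FMC_new. The 8 microglia markers summed to 89.1 and 92.3 CPM in C-ON and to 94.8 and 94.0 CPM in FMC_new. Of 25 marker lists, 3 were higher by 1.5-fold or more in both libraries in the cells with 5 or more, a limit chosen after the data had been seen. They were the 6 neuron markers, at 286 and 477 CPM in C-ON and at 415 and 756 CPM in FMC_new, the 7 fibroblast markers, at 4.1 and 24.1 CPM and at 9.38 and 15.8 CPM, and the 6 plasmacytoid dendritic cell markers, at 37.4 and 68.1 CPM and at 54.3 and 95.7 CPM. The lists of ILC2 and endothelial cells were lower by that measure. The 11 oligodendrocyte markers were at 72880 and 56191 CPM and at 65862 and 56960 CPM. The median depth was 7835 and 8895 UMIs in C-ON and 7563 and 8108 UMIs in FMC_new, and the mitochondrial share was 2.23% and 1.41%, and 1.79% and 1.42%. What part these differences have in the ratios was not tested.

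RNA of oligodendrocytes was also found in other classes, and it was not subtracted from any level. RNA carried the other way, into oligodendrocytes, was not estimated. Gh, a pituitary transcript, was at 2084 CPM in oligodendrocytes of FMC_new and at 0 in those of C-ON. The sum of 10 listed oligodendrocyte markers, a measure chosen after the data had been seen, was in the 8 other classes compared between 5.92% and 17.6% of its oligodendrocyte level in C-ON and between 1.65% and 7.63% in FMC_new. Taken as oligodendrocyte RNA with its average member content, this would give 10.5% and 6.96% of the member level of glioma cells, 4.62% and 1.68% of that of microglia, and 5.19% and 1.89% of that of T cells. The highest share was 13.7%, in NK cells of C-ON. The shares are too high where a class makes these markers itself. In NK cells of C-ON, Iigp1 was at 29.3 CPM, where such RNA alone would give 30.7 CPM, so Iigp1 there was not above this background.

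Several members share sequence or position with other genes, and their counts are uncertain to that extent. Ifit3 and Ifit3b, Tgtp1 and Tgtp2, Iigp1 and Gm4951, and Oas1a and Oas1g are close copies. Igtp overlaps Irgm2, Gbp4 overlaps Gbp8 and Gbp9, and Irf9 overlaps Rnf31 on the same strand.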

How the data were processed

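The authors deposited UMI counts per gene and barcode, without normalization, for barcodes called as cells. Per the submitters' processing notes, Cell Ranger 7.2.0 and mm10 were used; the paper's text names another Cell Ranger version. The handling of intronic reads is not given in the sources used here. The whole-number counts were used as deposited. No column of another sample was present.

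Cells with 500 to 5000 genes, 500 to 20000 UMIs and at most 5% mitochondrial UMIs were kept (25652). Counts were scaled to 10000 per cell and logged in Seurat 5.3.0 (R 4.3.3), followed by CCAIntegration on 30 components of 1970 variable genes (2000 less 30 members) and clustering at a resolution of 0.8, which gave 39 clusters. Clusters were named from 25 marker lists. A marker counted when found in at least 20% of cells and at least 2 times the mean over clusters, and at least 3 were needed. Low-UMI clusters without a leading marker, cell cycle clusters and clusters led by another class stayed unnamed. A clause added after the leading genes had been seen left cluster 29, with markers of oligodendrocytes and microglia, unnamed. In all, 8 clusters (2627 cells) were unnamed. Scrublet's automatic threshold marked 1 and 0 cells, so doublets were kept in the main analysis and the 6% of cells with the highest score (530 and 1009) were left out in an alternative.

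Levels and intervals came from scipy 1.17.1, numpy 2.4.6 and pandas 2.3.3 (Python 3.11.15). Fold comparisons used genes with at least 30 UMIs, with a floor of 3 counts for a class without a UMI. For thinning to 1000 UMIs (seed 7), 612 shallower cells were left out and 25040 remained. Classes entered with at least 50 cells in a library. Levels are given for the 5 members with the most UMIs in oligodendrocytes, glioma cells, microglia and T cells, the highest and lowest member of each role in oligodendrocytes, members past 2-fold in a comparison, and the extremes of each list; others named were chosen after their values were seen. The fold step was tested on simulated counts. The planned measure of carried RNA, from 1 marker gene, is not reported here, and a sum of 10 markers took its place. The members and lists were chosen with earlier results of these data known. Alternatives covered clustering, normalization, doublets, depth, member set, pooling, fold and count limits, and each library alone.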

Additional observations from a re-analysis of the deposited data

How the results depend on the processing

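With 2 libraries of 1 condition no result has a test, and depth limits members near 0 such as Oas2 and Oasl1 in oligodendrocytes. No paired analysis was possible because both libraries belong to 1 group and no test was made. Levels, shares and the ratio of oligodendrocytes to glioma cells are means of both libraries here. An alternative counted as having moved them when it differed by more than their SD. The ratio of FMC_new to C-ON counted as moved outside its counting interval, 1.76 to 1.80, which is narrow. Counts of members had a fold limit of their own. Reversal was read for the ratios of oligodendrocytes to glioma cells and of FMC_new to C-ON only, and neither crossed 1. The order of classes did change. Without Ifitm3, Bst2 and Ifi27l2a, T cells of FMC_new were at 2064 CPM, below oligodendrocytes at 2701 CPM and glioma cells at 2785 CPM. The SD is a wide yardstick where the libraries differ, and leaving out a library cannot pass it. The level in oligodendrocytes, 2410 CPM (1736 to 3083 with each library alone), was between 2060 and 2468 CPM under the other alternatives, and that in glioma cells, 2772 CPM (2163 to 3382), between 2187 and 2929 CPM. The share of oligodendrocytes with 5 or more member UMIs, 14.9% (9.65% to 20.2%), was 8.77% with cells thinned to 500 UMIs and 21.2% at 3 or more UMIs. Microglia, at 4422 CPM, moved to 4302 with SCTransform, 4548 without the highest doublet scores, 3076 without Ifitm3, Bst2 and Ifi27l2a, 4191 without Ifit3b, Tgtp2, Gm4951 and Oas1a, 4047 as a mean over cells, and 4538 with mitochondrial, Gh, Prl and immunoglobulin genes taken out of the total. With each library alone they were at 4349 to 4496 CPM. T cells, at 4432 CPM (3899 to 4965 with each library alone), moved to 2300 CPM without Ifitm3, Bst2 and Ifi27l2a, since Ifi27l2a is 40.8% of their sum. The ratio of oligodendrocytes to glioma cells, 0.857 (0.803 to 0.912 with each library alone), was 0.946 as a mean over cells. The ratio of FMC_new to C-ON in oligodendrocytes, 1.78, was 1.66 with SCTransform, 1.81 at a resolution of 1.2, 1.74 without the highest doublet scores, 1.90 without Ifitm3, Bst2 and Ifi27l2a, 1.92 as a mean over cells and 1.197 with the clusters weighted as in C-ON, an alternative chosen after the data had been seen. Members past 2-fold numbered 9 between oligodendrocytes and glioma cells, 11 in FMC_new alone and 18 in C-ON alone. They numbered 15 between microglia and oligodendrocytes, 20 in FMC_new alone and 25 in C-ON alone. Between T cells and oligodendrocytes there were 16, and 25 in each library alone. Fewer calls in both libraries follow from asking for the fold in each. Past 3-fold, 5 members remained between oligodendrocytes and glioma cells, 10 between T cells and oligodendrocytes and 3 between the libraries, against 15 past 2-fold. The shares of all genes past 3-fold, or past 2-fold in a library alone, were not computed, so these counts have no background.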

Other observations

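The border macrophage of C-ON with 181 interferon UMIs had 5943 UMIs in all, and 195 of them (3.28%) were of the members. The median of its class was 0.372%, and 355 of 356 border macrophages of C-ON were below this cell. In FMC_new, Ifnb1 was found in 5 cells, with 5 UMIs in each of a border macrophage and a microglial cell and 4 in another microglial cell, which held 388 member UMIs of 10291. Single cells are no replicates, and no cell was tested against its class.

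Among genes on none of the lists, those with the widest difference between oligodendrocytes with 5 or more and with 0 member UMIs included Gbp2b and Serping1, an inhibitor of complement C1, with log2 ratios in C-ON of 7.84 and 9.33. In FMC_new these were 8.40 and 6.32. Il18bp, which neutralizes the cytokine interleukin-18, was at 7.32 and 5.74. The predicted genes F830016B08Rik (10.1 and 6.47), Gm4841 (8.64 and 6.14) and Gm12185 (7.06 and 6.12) stood beside them. Gm12185 is 1 of the genes whose promoter held the joined cores of Igtp, Irgm2 and Tgtp2.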
